A study of Rattus norvegicus with 6 samples.

Results

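The core tRFs of rat perirenal fat were defined as the tRNA-derived fragments with at least 10 counts in each of the 6 libraries, leaving out 4 ranges of numbers that hold a few very abundant fragments (tRF00041700 to tRF00041899, tRF00043550 to tRF00043699, tRF00040330 to tRF00040499 and tRF00006750 to tRF00006909). They numbered 1014 of the 65535 tRFs listed (1.55%), or 2.32% of the 43783 tRFs with any count. Members were chosen by their counts, so their presence in every library is not a result. Another 116 tRFs met the count minimum but lie in the ranges left out.

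One group was fed the high-fat diet (HFD, 40% fat) and its control the low-fat diet (LFD). Both diets were fed to male Sprague Dawley rats, 6 weeks old at the start, over 100 days. Each diet had 3 libraries of RNA of 15 to 40 nt taken from the fat around the kidneys. These details are those of the study's methods. The labels differ from them, with heart as the source, adipose as the tissue and 8 weeks as the age, and since the table holds tRFs and no messenger RNAs, the tissue could not be checked against marker genes. Nothing states that the 3 libraries of a diet came from separate rats, so every p below measures the spread between libraries, which may be technical.

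Transfer RNAs carry amino acids to the ribosome, and nucleases can cleave them into shorter, stable fragments, often more so in stressed cells. Such fragments can be loaded into argonaute proteins and repress messenger RNAs by base pairing, much as microRNAs do, and some bind other proteins or slow translation. A tRNA can give several fragments that share a start or an end, and near-identical tRNA gene copies can give the same fragment. The table names each tRF by number only, with no sequence, length or parent tRNA, so the core tRFs are described by number.

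Total counts of all listed tRFs were 5751653 to 12180060 in the HFD libraries, against 1322760 to 9729804 in the LFD libraries, the smallest being LFD 1. Core tRFs took 1775080, 1454595 and 678242 counts in HFD 1, HFD 2 and HFD 3, against 223424, 815937 and 2226248 counts in LFD 1, LFD 2 and LFD 3. The median core tRF had 234.5, 142 and 99 counts in the HFD libraries, against 48.5, 152.5 and 159 counts in the LFD libraries. LFD 1 therefore gave the least precise values, and it held the lowest of the 6 counts for 492 core tRFs (48.5%).

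The count minimum was not equally strict in every library. A count of 10 stood for 0.821, 0.915 and 1.74 CPM (counts scaled to the library total) in the HFD libraries, against 7.56, 2.15 and 1.03 CPM in the LFD libraries. LFD 1 alone kept 241 further tRFs out of the core, and HFD 3 alone kept out 164, while each of the other libraries alone kept out 7 to 65. At the threshold, 60 core tRFs had a lowest count of exactly 10 and 69 tRFs just missed with a lowest count of 9. Just inside stood tRF00000328 with 104, 10 and 15 counts in the HFD libraries, against 16, 47 and 78 counts in the LFD libraries. Just outside stood tRF00006719 with 410, 502 and 9 counts in the HFD libraries, against 68, 120 and 171 counts in the LFD libraries. A tRF of some abundance could thus fail through HFD 3 or LFD 1 alone.

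Core tRFs made up a smaller part of the listed tRF counts on the HFD. They held 14.6%, 13.3% and 11.8% of all counts in the HFD libraries, against 16.9%, 17.6% and 22.9% in the LFD libraries. Every HFD library lay below every LFD library, with 13.2% ± 1.39 in the HFD group and 19.1% ± 3.28 in the LFD group (SD, n = 3 each; difference -5.89 percentage points, two-sided exact permutation p = 0.1, the smallest p that 3 libraries against 3 allow). The tRFs of the 4 ranges left out held 83.7%, 85.5% and 87.1% of the counts in the HFD libraries, against 79.9%, 79.3% and 73.4% in the LFD libraries. The difference therefore turned on the ranges, and with them kept in, the tRFs that met the minimum held 2.02 percentage points more of the counts in the HFD group. From here on, a core share is a tRF's percent of the counts of all core tRFs in its library.

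Core abundance was very uneven. Mean core shares over the 6 libraries ran between 0.00161% and 8.38%, a 5194-fold range, with a median of 0.0185%. The 10 most abundant core tRFs held 39.7% of the mean core share and the 100 most abundant 74.0%, while ranks 101 to 400 held 19.2% and the remaining 614 tRFs 6.83%. Only 14 tRFs reached a mean core share of 1%, and 152 reached 0.1%.

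How strongly the counts were concentrated varied more among LFD than among HFD libraries. The effective number of core tRFs, the exponential of the Shannon entropy of the shares, which is the number of equally abundant tRFs that would be as diverse, was 136, 88.3 and 113 in the HFD libraries, against 225, 170 and 61.0 in the LFD libraries. The groups overlapped, at 112 ± 23.7 in the HFD group and 152 ± 83.4 in the LFD group (SD, n = 3 each; exact permutation p = 0.5). The number of tRFs that together held 50% of the core counts was 19, 10 and 13 in the HFD libraries, against 36, 26 and 9 in the LFD libraries, so LFD 3 was the most concentrated library and LFD 1 the most even. The 10 most abundant tRFs held 36.9%, 46.3% and 47.1% in the HFD libraries, against 27.4%, 32.8% and 47.6% in the LFD libraries, again with overlap (43.4% ± 5.68 in the HFD group and 35.9% ± 10.5 in the LFD group, SD, n = 3 each; exact permutation p = 0.4). Without LFD 1 the difference in effective number between the HFD and LFD groups shrank to -3.22, and without LFD 3 it was -85.1.

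The leading fragment differed by library. tRF00042333 was the most abundant core tRF in all 3 HFD libraries, tRF00042334 in LFD 1, and tRF00058781 in LFD 2 and LFD 3. tRF00042333 had 198940, 229874 and 91454 counts in the HFD libraries, against 12059, 23258 and 34249 counts in the LFD libraries, or core shares of 11.2%, 15.8% and 13.5%, against 5.40%, 2.85% and 1.54%. All HFD shares lay above all LFD shares. The edgeR quasi-likelihood test, fitted on every tRF that reached 10 counts in 3 or more libraries, gave a log2 fold change of 2.35 with SE 0.51 (adjusted p = 0.168).

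tRF00058781 ran the other way, at core shares of 2.25%, 0.264% and 3.45% in the HFD libraries, against 2.67%, 10.2% and 28.7% in the LFD libraries. HFD 1 and HFD 3 stood on either side of LFD 1, so the groups overlapped, and the span over the 6 libraries was 108.6-fold. Its log2 fold change was -3.38 with SE 1.27 (edgeR quasi-likelihood test, adjusted p = 0.202), and -1.52 without LFD 3.

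Of the other 8 most abundant core tRFs, 4 had every HFD share above every LFD share. tRF00058765 had core shares of 5.07%, 4.71% and 4.93% in the HFD libraries, against 1.46%, 1.05% and 0.592% in the LFD libraries, and the HFD values differed little among themselves (log2 fold change 2.44, SE 0.51; edgeR adjusted p = 0.168). tRF00007214 had 4.65%, 8.26% and 5.54% in the HFD libraries, against 3.61%, 2.93% and 1.97% in the LFD libraries. tRF00006568 and tRF00006540 had like patterns, with log2 fold changes of 1.38 and 1.32. The remaining 4 overlapped between diets. tRF00042334 had 4.26%, 4.77% and 7.04% in the HFD libraries, against 5.92%, 4.96% and 3.13% in the LFD libraries, and its log2 fold change of 0.30 turned to -0.32 with scaling by library size alone. tRF00058778 ran at 1.52%, 0.857% and 2.43% in the HFD libraries, against 1.69%, 3.85% and 6.61% in the LFD libraries. tRF00058770 had log2 fold change -0.12 with SE 0.71, a sign that changed with the scaling, and tRF00042335 had -0.56 with SE 0.70.

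Ranks were only partly stable. The Spearman rho of core shares over the 1014 tRFs averaged 0.690 over the 3 pairs of HFD libraries (0.630 to 0.809), 0.695 over the 3 pairs of LFD libraries (0.553 to 0.808) and 0.588 over the 9 pairs that cross the diets (0.431 to 0.709). These are descriptions across tRFs, which share libraries and are not independent. The ranges overlapped, since HFD 1 and LFD 3 reached 0.709 while LFD 1 and LFD 3 reached only 0.553. Libraries of 1 diet that ranked the core most alike were HFD 1 with HFD 2 and LFD 2 with LFD 3, and the least alike pair was HFD 2 with LFD 3, at 0.431. Among core tRFs with at least 50 counts in each library, the mean across diets was 0.473.

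The top of the list turned over between libraries. No more than 3 tRFs, tRF00007214, tRF00042333 and tRF00042334, were among the 10 most abundant in all 6 libraries, while 21 were so in at least 1. Among the 25 most abundant, 8 were shared by all libraries, with tRF00006540, tRF00006568, tRF00058765, tRF00058770 and tRF00058778 added to the 3. Of the 100 most abundant, 30 were shared by all 6 libraries, of 204 that appeared in any. The pairs of HFD libraries shared 67 of their 100 most abundant on average, the pairs of LFD libraries 63.3 and the pairs across diets 57.8.

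Core shares varied widely between libraries of 1 diet. The median SD of a core tRF's log2 share was 0.825 among the HFD libraries and 1.09 among the LFD libraries, whereas counting error alone would give medians of 0.143 and 0.175. The highest of a tRF's 6 core shares was, in the median, 10.2-fold the lowest, with 15 core tRFs within 2-fold, 513 beyond 10-fold and 41 beyond 100-fold.

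Single libraries stood apart from the others of their diet for groups of fragments, HFD 3 and LFD 3 for the most. In HFD 3, 35 core tRFs lay more than 8-fold below both other HFD libraries and together held 0.459% of the core counts there, against 9.96% to 12.5% in the other HFD libraries. Among them, tRF00035826 had 27268 counts in HFD 1, 12293 in HFD 2 and only 90 in HFD 3, against 1266, 1902 and 2261 counts in the LFD libraries. tRF00042052 had 19067, 15169 and 29 counts in the HFD libraries, against 1584, 2296 and 2646 counts in the LFD libraries. Another 38 lay more than 8-fold above both other HFD libraries, among them tRF00041541 with 382, 471 and 8109 counts in the HFD libraries, against 402, 2883 and 164 counts in the LFD libraries. In LFD 3, 93 core tRFs lay more than 8-fold below both other LFD libraries, and LFD 3 held the lowest of the 6 shares for 530 core tRFs, while LFD 1 held the highest for 412. The count minimum shaped these numbers, since the lowest core share was 0.00448% in LFD 1 and 0.000449% in LFD 3. A core tRF could thus fall much lower in LFD 3 than in LFD 1. tRF00065293 was 1 of the 93, with 4886, 5533 and 3362 counts in the HFD libraries, against 273, 955 and 157 counts in the LFD libraries. Another 24 core tRFs, tRF00058781 among them, lay more than 8-fold below both other HFD libraries in HFD 2, where they held 0.352% of the core counts, against 3.24% to 4.78% in the other HFD libraries. LFD 1 had 22 above and 7 below both other LFD libraries, HFD 1 5 above and LFD 2 3 above. The tRFs of this paragraph were picked after their values were seen.

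No core tRF passed the test of diet. The edgeR quasi-likelihood test called 0 of 1014 core tRFs and 0% of all 3200 tRFs tested at an adjusted p of 0.05, the smallest adjusted p being 0.168. At an unadjusted p under 0.05, 122 core tRFs (12.03%) were higher and 59 (5.82%) lower on the HFD, beside 10.9% and 9.47% of all tRFs tested. The share that was higher lay near that of all tRFs tested, and the share that was lower was below it. DESeq2, run as an alternative, called 107 core tRFs higher (10.6%) and 64 lower (6.31%) at an adjusted p of 0.05, beside 9.22% and 10.4% of all tRFs tested, and gave 13 core tRFs no adjusted p. The number of calls depended on which library was left out. DESeq2 called 23 core tRFs without HFD 2, 86 and 88 without LFD 3 or LFD 2, and 279 without LFD 1. Without HFD 1 or HFD 3 the number changed little. A smaller group can itself lower the number, so a fall does not by itself show reliance on 1 library.

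The direction of the core as a whole depended on the scaling. The median log2 fold change of the core was -0.19, against -0.36 over all tRFs tested and -0.51 over the tested tRFs outside the core and the 4 ranges. It was 0.25 with upper-quartile scaling, -0.93 with library size alone and -0.46 with scaling by the core total. The unadjusted split of 122 higher and 59 lower became 99 and 66 with RLE scaling, 159 and 40 with upper-quartile scaling, 24 and 96 with library size alone and 40 and 50 with scaling by the core total. Without HFD 2 there were 93 core tRFs at an unadjusted p under 0.05 in either direction (77 higher and 16 lower), without LFD 2 76 (32 and 44) and without LFD 3 92 (54 and 38). Changes are therefore best read against the core median, and the core shares below are scaled by the core total. Unless another setting is named, the log2 fold changes given are those of the TMM fit and are not relative to that median. They are thus not on the scale of the core shares. For tRF00042333 the value was 2.35 with TMM and 2.05 with scaling by the core total, and for tRF00044929 it was -6.05 and -5.47.

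Counting only which libraries overlap, 116 core tRFs (11.4%) had all 3 HFD core shares above all 3 LFD core shares and 57 (5.62%) had them all below, beside 11.6% and 9.47% of all tRFs tested on the same scale. As shares of all counts, 77 (7.59%) were above and 192 (18.9%) below, beside 7.94% and 19.3%. On both scales the share above lay close to that of all tRFs tested, and so did the share below when taken of all counts. Of the core tRFs, 558 (55.0%) had a log2 fold change within 1 of 0, 96 lay above 2 and 91 below -2. At an unadjusted p under 0.05 there were 30 of the 100 most abundant (30%), 86 of ranks 101 to 400 (28.7%) and 65 of the 614 rarest (10.6%), beside 20.3% of all tRFs tested. A tRF scarce on 1 diet cannot be a core tRF, which holds most for the rarest, so the rule itself shapes all these shares.

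Of the 8 fragments most in favour of the HFD, 7 had numbers from tRF00039671 to tRF00041321. Core tRFs are common among these numbers, with 15 from tRF00040962 to tRF00041021 alone. Their share of the core was not computed, so no clustering can be read from this. tRF00041005 had 1882, 776 and 329 counts in the HFD libraries, against 13, 31 and 40 counts in the LFD libraries, and its lowest HFD share was 8.34-fold its highest LFD share. Its log2 fold change, the largest positive one among core tRFs whose groups did not overlap, was 4.46 with SE 0.78 (edgeR adjusted p = 0.168). tRF00041321, the most abundant of these fragments, had 15849, 6681 and 2495 counts in the HFD libraries, against 217, 439 and 539 counts in the LFD libraries. It ranked 19th, 32nd and 39th in the HFD libraries, against 170th, 250th and 255th in the LFD libraries, at a log2 fold change of 3.63 with SE 0.70.

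Next came 4 fragments with nearly the same profile. tRF00040024 had core shares of 0.313%, 0.207% and 0.247% in the HFD libraries, against 0.0251%, 0.0365% and 0.0115% in the LFD libraries. tRF00040039 had 0.321%, 0.223% and 0.269% in the HFD libraries, against 0.0331%, 0.0381% and 0.0133% in the LFD libraries. tRF00040730 had 0.254%, 0.182% and 0.225% in the HFD libraries, against 0.0269%, 0.0343% and 0.00952% in the LFD libraries. With tRF00040006, their log2 fold changes ran between 3.43 and 3.55 and their core shares were 5.31-fold to 6.11-fold apart at the nearest libraries. tRF00039671 and tRF00006539, at log2 fold changes of 3.33 each, completed the 8 with the largest positive values. The edgeR quasi-likelihood test gave all 8 an adjusted p = 0.168, above the threshold, whereas DESeq2 gave them adjusted p between 4.28e-09 and 1.69e-05.

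All 8 fragments most in favour of the LFD had their highest core share in LFD 3. tRF00044929 had 55, 53 and 39 counts in the HFD libraries, against 38, 699 and 9992 counts in the LFD libraries, with core shares of 0.00310%, 0.00364% and 0.00575%, against 0.0170%, 0.0857% and 0.449%. Its log2 fold change was -6.05 with SE 1.54 (edgeR adjusted p = 0.168), and without LFD 3 the log2 fold change was -3.34. Without LFD 3 those of the other 7 ran between -3.48 and -2.67, against -5.59 to -4.48 with all libraries. DESeq2 gave 5 of the 8 adjusted p between 6.75e-06 and 0.00103 and gave none to tRF00054432, tRF00062477 and tRF00062501. tRF00058785 had 77, 29 and 42 counts in the HFD libraries, against 43, 710 and 6707 counts in the LFD libraries, at a log2 fold change of -5.59 with SE 1.40.

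The pair tRF00054430 and tRF00054432 was among the most clearly separated of these. tRF00054430 had core shares of 0.00563%, 0.00639% and 0.00634% in the HFD libraries, which hardly varied, against 0.0461%, 0.107% and 0.379% in the LFD libraries. tRF00054432 had 0.0103%, 0.00467% and 0.0105% in the HFD libraries, against 0.140%, 0.108% and 0.453% in the LFD libraries, and its nearest libraries were 10.3-fold apart. Their log2 fold changes were -5.30 with SE 1.25 and -5.20 with SE 1.12.

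A second pair, tRF00062477 and tRF00062501, was alike in its even HFD values. tRF00062501 had 421, 391 and 256 counts in the HFD libraries, against 612, 1832 and 23454 counts in the LFD libraries, at a log2 fold change of -4.56 with SE 1.10. tRF00042466 and tRF00003633 were the last of the 8 and were uneven within the HFD group. tRF00042466 had 1259, 56 and 85 counts in the HFD libraries, against 364, 4297 and 24924 counts in the LFD libraries, and it ranked 51st in mean abundance (log2 fold change -4.77, SE 1.45; edgeR adjusted p = 0.172).

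The shares of other core fragments overlapped closely between diets. Taken relative to the core median, the 95% interval of the log2 fold change reached least far from 0 for tRF00041020, at -1.32 to 1.39. This fragment had core shares of 0.313%, 0.480% and 0.572% in the HFD libraries, against 0.614%, 0.522% and 0.435% in the LFD libraries. tRF00040807 had 0.388%, 0.443% and 0.627% in the HFD libraries, against 0.646%, 0.594% and 0.345% in the LFD libraries, with an interval of -1.09 to 1.44. Even these intervals allowed changes of more than 2-fold in either direction, so no core tRF was shown to be unchanged.

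The rest of the 8 least changed were tRF00040992, tRF00041499, tRF00041116, tRF00039751, tRF00040963 and tRF00041043. tRF00041499 had 572, 482 and 223 counts in the HFD libraries, against 140, 357 and 554 counts in the LFD libraries. Its core shares were 0.0322%, 0.0331% and 0.0329% in the HFD libraries, near-constant, against 0.0627%, 0.0438% and 0.0249% in the LFD libraries. All 8 lie between tRF00039751 and tRF00041499, where core tRFs are common and most of the fragments with the largest positive log2 fold changes also lie. The share of the core in this range was not computed, so no clustering can be read from this. Each of the 8 was an inner member of a run of consecutive numbers, as described below. In each such run the first member had a positive and the last a negative log2 fold change. For tRF00041498, tRF00041499 and tRF00041500, for example, the values were 1.89, -0.21 and -0.91.

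The steadiest fragment over all 6 libraries was tRF00046048, with core shares of 0.102%, 0.0987% and 0.156% in the HFD libraries, against 0.133%, 0.119% and 0.0959% in the LFD libraries. Its SD of log2 share was 0.279, the lowest in the core, and the highest share was 1.63-fold the lowest. tRF00050948 followed with an SD of 0.297, at 0.169%, 0.132% and 0.217% in the HFD libraries, against 0.199%, 0.194% and 0.137% in the LFD libraries. The other 6 of the steadiest 8, tRF00040992, tRF00041938, tRF00053279, tRF00041466, tRF00006541 and tRF00041558, had SDs between 0.308 and 0.347. Only tRF00040992 was both among the 8 steadiest and the 8 least changed, with 3404, 3859 and 2209 counts in the HFD libraries, against 764, 2393 and 5380 counts in the LFD libraries.

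Most groups of core tRFs with nearby numbers held log2 fold changes of both signs. Core tRFs no more than 20 numbers apart formed 282 stretches, 91 of them a single tRF, and of the 64 stretches with at least 5 members (580 tRFs), 60 held both signs with TMM scaling. The core median log2 fold change was -0.19, so most sets of at least 5 core tRFs would hold both signs whatever their numbers. The count is thus no result about nearby numbers. Neighbours were not further apart than other core tRFs, as the median absolute difference in log2 fold change was 1.19 between consecutive core tRFs and 1.36 between any 2 core tRFs, and 28.6% and 33.9% of these pairs differed by over 2. The stretch from tRF00058752 to tRF00058785 held the most counts, 15.7% of the mean core share, and its 7 members ran between log2 fold changes of -5.59 and 2.55. As a sum it took 10.7%, 7.87% and 13.4% of core counts in the HFD libraries, against 7.26%, 16.6% and 38.0% in the LFD libraries (exact permutation p = 0.5). The stretch from tRF00042330 to tRF00042341 took 17.1%, 21.3% and 23.0% in the HFD libraries, against 13.6%, 10.4% and 6.67% in the LFD libraries (20.5% ± 3.04 in the HFD group and 10.2% ± 3.47 in the LFD group, SD, n = 3 each; exact permutation p = 0.1, the smallest possible).

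Within such stretches the order of the numbers went with the diet. The 1014 core tRFs form 371 pairs with consecutive numbers, and for each pair the log2 ratio of the higher-numbered to the lower-numbered count was taken in each library, a value that needs no scaling. Its median over the pairs was -1.15, -1.78 and -0.86 in the HFD libraries, against 0.03, 0.71 and 0.88 in the LFD libraries. All HFD medians lay below 0 and all LFD medians above it, with means of -1.26 ± 0.47 in the HFD group and 0.54 ± 0.45 in the LFD group (SD, n = 3 each; difference -1.80, two-sided exact permutation p = 0.1, the smallest possible). The higher-numbered member was the more abundant in 29.9%, 21.0% and 28.6% of pairs in the HFD libraries, against 50.4%, 63.9% and 66.3% in the LFD libraries. This comparison was chosen after the values of single stretches were seen.

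The shift was spread over most pairs. In 331 of the 371 pairs (89.2%) the mean log2 ratio was lower in the HFD group, beside 85.5% of the 1415 consecutive pairs among all tRFs tested, and in 207 (55.8%) all 3 HFD ratios lay below all 3 LFD ratios, beside 39.6%. The reverse held in 7 pairs (1.89%), beside 2.76%. The library of the smallest total, LFD 1, had a median between those of the HFD libraries and the other LFD libraries. The medians of HFD 1 and LFD 3, with totals of 12180060 and 9729804, were -1.15 and 0.88. What caused the shift was not tested. The difference was -1.76 with all libraries thinned to the smallest total, -1.997 for the 70 pairs with over 100 counts of both members in each library and -1.79 with each tRF in only 1 pair, and leaving out single libraries gave -2.06 to -1.54. The order was also seen outside the core. Among the 600 consecutive pairs of the other tested tRFs, 0.5 was added to each count. Their medians were -0.43, -1.42 and -0.12 in the HFD libraries, against 0.00, 0.65 and 0.93 in the LFD libraries. All HFD ratios lay below all LFD ratios in 35.7% of these pairs. Among 39 consecutive pairs of the 4 ranges left out, the HFD medians were -1.72, -3.40 and -1.58. The LFD medians there were -1.55, -0.77 and -1.10, all negative, and HFD 3 and LFD 1 nearly met.

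Longer runs showed the same order. The core holds 115 runs of at least 3 consecutive numbers, with 383 members. Their 268 steps are all among the consecutive pairs above, so the runs describe the same shift again and are not separate evidence. The log2 fold change was lower at every step to the next number in 95 runs (82.6%), beside 73.6% of 417 such runs among all tRFs tested, higher at every step in 3 core runs, and lower for the last member than for the first in 112. The mean position of the counts along the run lay lower in all HFD libraries than in any LFD library in 94 runs (81.7%), beside 71.2% of the runs among all tRFs tested, and in no core run did it lie higher in all HFD libraries, beside 0.719%. What the order of the numbers stands for is not given in the sources used here, and whether fragment length or the size selection of the RNA differed between the libraries was not tested.

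The run from tRF00006539 to tRF00006542 shows the pattern in its simplest form. tRF00006539 took 1.08%, 0.865% and 1.15% of the run's counts in the HFD libraries, against 0.366%, 0.203% and 0.0951% in the LFD libraries, with a log2 fold change of 3.33. tRF00006540 took 81.4%, 93.2% and 81.0% in the HFD libraries, against 69.5%, 71.4% and 67.8% in the LFD libraries, and the next member, tRF00006541, took 8.52%, 4.62% and 9.14% in the HFD libraries, against 13.5%, 9.91% and 13.3% in the LFD libraries. tRF00006542 took 9.01%, 1.33% and 8.71% in the HFD libraries, against 16.6%, 18.5% and 18.8% in the LFD libraries, with a log2 fold change of -0.79. The lower-numbered members took more of the run in every HFD library and the higher-numbered last one more in every LFD library.

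The most abundant run, tRF00042330 to tRF00042335, split between 3 main members. tRF00042333 took 66.2%, 74.3% and 59.2% of its counts in the HFD libraries, against 40.2%, 28.5% and 27.2% in the LFD libraries. tRF00042334 took 25.2%, 22.4% and 30.9% in the HFD libraries, against 44.1%, 49.6% and 55.3% in the LFD libraries. tRF00042335 took 6.78%, 1.23% and 8.27% in the HFD libraries, against 13.2%, 21.4% and 17.0% in the LFD libraries. The core's leading HFD fragment thus stood beside 2 neighbours whose part of the run was larger in every LFD library. The rarer members before it did not follow the order, as the log2 fold changes of tRF00042330, tRF00042331 and tRF00042332 were 1.22, 1.72 and 2.61.

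A wide change was seen in the stretch from tRF00058752 to tRF00058785, whose 7 core members are not all consecutive. tRF00058765 took 47.6%, 59.9% and 36.7% of its counts in the HFD libraries, against 20.2%, 6.32% and 1.55% in the LFD libraries. tRF00058781 took 21.1%, 3.36% and 25.7% in the HFD libraries, against 36.7%, 61.3% and 75.4% in the LFD libraries. In order of number, the log2 fold changes of tRF00058752, tRF00058764, tRF00058765, tRF00058770, tRF00058778, tRF00058781 and tRF00058785 were 1.14, 2.55, 2.44, -0.12, -1.72, -3.38 and -5.59, lower at each step after tRF00058764. These runs were picked after their values were seen.

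Similar series of changes recurred in other runs, some of them near in number. In order of number, the log2 fold changes of tRF00059024 to tRF00059029 were 0.91, 2.74, 2.41, -0.17, -1.76 and -3.43. Those of tRF00058252 to tRF00058256 were 2.88, 2.49, -0.12, -1.66 and -3.43, and those of tRF00058366 to tRF00058370 were 2.35, 2.56, -0.07, -1.67 and -3.31. The last 4 of each run lay close to tRF00058765, tRF00058770, tRF00058778 and tRF00058781, while the rarer members before them did not keep 1 order. Likewise tRF00040770, tRF00040771 and tRF00040772, at 2.20, 0.16 and -0.60, lay close to tRF00042333, tRF00042334 and tRF00042335, at 2.35, 0.30 and -0.56. tRF00007213 to tRF00007216, at 3.18, 1.28, 0.11 and -0.85, and tRF00006567 to tRF00006570, at 2.99, 1.38, 0.23 and -0.73, lay close to tRF00006539 to tRF00006542. Of these runs, tRF00006567 to tRF00006570 and tRF00006539 to tRF00006542 lie in the same stretch, tRF00006537 to tRF00006617.

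Counts of the abundant matching members kept nearly fixed ratios in all libraries. tRF00058781 had 13.2, 13.0 and 12.9 times the counts of tRF00059029 in the HFD libraries, against 13.2, 12.8 and 12.5 times in the LFD libraries, although each fragment varied over 100-fold in core share. tRF00006540 had 0.605, 0.590 and 0.573 times the counts of tRF00007214 in the HFD libraries, against 0.566, 0.574 and 0.585 times in the LFD libraries. The ratios of the rare first members ranged more widely. That of tRF00006539 to tRF00007213 ran between 0.414 and 0.8 and that of tRF00006567 to tRF00006539 between 0.806 and 1.63 over the libraries. The extremes rest on few counts, as tRF00006539 and tRF00007213 had 24 and 58 in LFD 1 and 36 and 45 in LFD 3. Whether these ratios varied beyond counting error was not tested. Of the 22578 pairs among the 213 core tRFs with at least 100 counts in each library, 43 kept their log2 ratio within a range of 0.25 over the 6 libraries. They join 62 tRFs into 24 groups that held 34.0% to 57.8% of the core counts of a library. None of the 43 pairs had consecutive numbers, but only 70 of the 22578 pairs did, so their absence says little.

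Members of such a group are not separate evidence. The table does not say whether they are fragments of near-identical tRNA copies or how reads that match several tRNAs were assigned, and this was not tested. With 1 tRF kept per group, 976 core tRFs remained, of which 108 (11.1%) had all HFD core shares above the LFD core shares and 56 (5.74%) had them below, close to the shares of the whole core. The difference in the median log2 ratio of consecutive tRFs was then -1.79 over 328 pairs. Only the 213 core tRFs with at least 100 counts in each library could be grouped, so few were removed and rarer matching members stayed in. These values therefore cannot show how much matching members weigh in the whole core.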

How the data were processed

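Small RNA libraries of rat perirenal fat were sequenced on an Illumina. The authors deposited raw counts per tRF and library, not normalized. The submitters' processing notes name the build Rnor_5.0. Aligner, tRNA annotation and the handling of multi-mapping reads were not given in the sources used here. Numbers above 65535, where the table ends, were not analysed here.

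The diet in the labels set the groups. In R 4.3.3, the quasi-likelihood test of edgeR 4.0.16, scaled by TMM and adjusted after Benjamini-Hochberg, was fitted to 3200 tRFs (a minimum of 10 counts in 3 or more libraries), and core tRFs were read from that fit. For single values per library, two-sided exact permutation tests were used. The fits were tested on simulated data. Alternatives were DESeq2 1.42.0, limma 3.58.1 (prior count 1), other scalings, other count minimums, the replicate block, thinning and each library left out in turn. Named tRFs were the 10 most abundant, the 8 with the largest log2 fold change in each direction among those whose groups did not overlap, the 8 least changed and the 8 steadiest in log2 share, and up to 3 on each side of the minimum. Others are said to be picked after their values were seen. The members and these rules were chosen with earlier results of these data known. PCR reads without molecular identifiers are not independent molecules, so counting error is a lower limit.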

Additional observations from a re-analysis of the deposited data

How the results depend on the processing

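edgeR called 0 of the 3200 tRFs tested (651 of them, and 181 core tRFs, at an unadjusted p under 0.05). It also called 0 with each scaling, with the replicate block, at a minimum of 50 counts (1235 tested) and without each library in turn (2526 to 3081 tested), and limma called 0. Without a count minimum it called 48, of them 5 core tRFs, and DESeq2 called 628, of them 171. With single libraries left out, DESeq2 called 386 (HFD 1 out), 76 (HFD 2), 476 (HFD 3), 949 (LFD 1), 273 (LFD 2) and 222 (LFD 3), of them 168, 23, 165, 279, 88 and 86 core tRFs in the same order. These DESeq2 fits with a library left out, and all alternatives for consecutive tRFs and near-proportional groups, were chosen after seeing the data. At an unadjusted p under 0.05 there were 120 core tRFs with library size alone, 90 with scaling by the core total, 273 with DESeq2, 74 with the replicate block and 76 to 245 with a library left out. Same-numbered libraries of the diets deviated in opposite ways (r = -0.33, -0.40 and -0.17 across core tRFs), so the numbers were not taken to pair them. Some differently numbered libraries deviated alike, HFD 1 with LFD 3 (r = 0.44), HFD 2 with LFD 1 (0.46) and HFD 3 with LFD 2 (0.45). The remaining r ran between -0.227 and -0.105. Deviations within a diet balance out over its 3 libraries, so r of 1 sign in some pairs goes with the other sign in others. These r are therefore not separate observations, and what lies behind them was not tested. The difference in core share of all counts was 2.02 percentage points with the 4 ranges kept in. The 173 core tRFs with groups that did not overlap became 72 at a minimum of 50 counts in each library, 328 with the ranges kept in and 192 to 396 with a library left out, where fewer libraries overlap less often by construction. The core numbered 1563 at a minimum of 5 counts, 662 at 20, 353 at 50 and 424 at an equal minimum share, and the rho across diets was 0.473 at a minimum of 50. Of the named tRFs, tRF00042334 turned to -0.32 with library size alone, tRF00042335 ran between -0.93 and 0.0017 with a library left out, and tRF00058770 was 0.52 with upper-quartile scaling, 0.0597 by the core total, 0.19 with limma, 0.25 without a minimum, 0.21 with the block and -0.44 to 0.73 with a library left out. Effective number, share of the 10 most abundant, rank correlation within diets and the ratio of consecutive tRFs kept their direction or moved within the spread. The causes were not tested, and the low total of LFD 1 limits the rarest core tRFs.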
